A study of Mus musculus with 9 samples.

Results

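The genes described here encode 3 sodium channel subunits, Scn4a, Scn7a and Scn4b, among the 15779 genes with a row in the deposited tables. They were chosen by symbol, partly because Scn4b stood high in a ranking by p of treated against untreated mutant hearts, so that contrast is described below without a test. All 3 were found in each of the 3 tables of pairwise comparisons. Messenger RNA had been sequenced from the hearts of 9 adult C57BL/6J mice in 3 groups of 3. One group was wild type and received saline. Another carried the genotype Mybpc3R946X/R946X, a homozygous premature stop codon in the gene of cardiac myosin-binding protein C, and also received saline. The last group had the same mutant genotype and received a treatment labelled high-dose-exABE8e. The series describes an adenine base editor carried by the adeno-associated virus AAV9 and expressed in cardiomyocytes. The labels do not say whether the 3 hearts of a group came from separate litters, and they give no sex, age in weeks or dose.

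Voltage-gated sodium channels carry the inward current that starts the action potential of muscle and nerve. A channel consists of a large pore-forming alpha subunit with 4 homologous domains and of smaller beta subunits, which cross the membrane once and change the gating and surface level of the pore. Scn4a encodes Nav1.4, the principal alpha subunit of skeletal muscle. Scn7a encodes Nax, an alpha-like protein that is opened by extracellular sodium rather than by voltage and is known from glia, including Schwann cells. Scn4b encodes the beta-4 subunit, whose cytoplasmic tail can block open channels and which is known from heart, skeletal muscle and brain.

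In saline-treated mutant hearts 2 of the 3 subunits fell. Scn4b was at 12.9% of its wild-type mean and Scn4a at 26.7%, while Scn7a, at 110% of its wild-type mean, showed no change that could be told from the spread between hearts. In treated mutants Scn4b and Scn4a stood between the saline groups, at 61.4% and 70.0% of the wild-type mean. Values are given as deposited. They are whole numbers that sum to between 999152 and 999382 in each library, which fits a per-million value rounded by the authors, and no source names the unit, so levels are compared only within a gene.

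On GRCm38, the build named mm10 in the submitters' processing notes, Scn4a (ENSMUSG00000001027.7) lies at chr11:106318592-106353288 on the minus strand. Its longest coding transcript in GENCODE M21 has 24 exons and 1841 codons. Scn7a (ENSMUSG00000034810.7) lies at chr2:66673425-66784914 on the minus strand, with 25 exons and 1681 codons. Scn4b (ENSMUSG00000046480.6) lies at chr9:45138395-45154152 on the plus strand, with 5 exons and 684 coding bases in a transcript of 4982 bases. The beta subunit thus has a much shorter coding sequence than both alpha genes. No other GENCODE M21 gene overlaps any of the 3 on either strand in that annotation.

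Promoter sequences of the 3 genes, which lie on different chromosomes, are shown as a description. Their part in the fall of Scn4a and Scn4b was not tested. RefSeq held a window for each of the 3 on GRCm38.p6, from 250 bases before to 50 bases after the annotated start. They are printed in the direction of the gene, with every CG dinucleotide in capitals. The windows are chr11:106349341-106349640 (minus strand), chr9:45138374-45138673 (plus strand) and chr2:66784861-66785160 (minus strand), in this order.
Scn4a: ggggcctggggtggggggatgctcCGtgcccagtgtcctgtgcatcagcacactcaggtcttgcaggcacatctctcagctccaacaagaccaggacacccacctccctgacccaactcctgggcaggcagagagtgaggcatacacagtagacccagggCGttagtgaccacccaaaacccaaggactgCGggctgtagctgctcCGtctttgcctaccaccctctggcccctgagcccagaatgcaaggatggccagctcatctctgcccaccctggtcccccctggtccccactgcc
Scn4b: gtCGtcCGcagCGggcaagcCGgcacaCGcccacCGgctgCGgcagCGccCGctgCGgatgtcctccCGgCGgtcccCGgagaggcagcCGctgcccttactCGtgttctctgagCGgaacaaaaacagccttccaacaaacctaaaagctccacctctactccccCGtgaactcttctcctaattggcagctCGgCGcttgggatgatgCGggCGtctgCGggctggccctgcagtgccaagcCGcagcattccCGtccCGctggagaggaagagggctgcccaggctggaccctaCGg
Scn7a: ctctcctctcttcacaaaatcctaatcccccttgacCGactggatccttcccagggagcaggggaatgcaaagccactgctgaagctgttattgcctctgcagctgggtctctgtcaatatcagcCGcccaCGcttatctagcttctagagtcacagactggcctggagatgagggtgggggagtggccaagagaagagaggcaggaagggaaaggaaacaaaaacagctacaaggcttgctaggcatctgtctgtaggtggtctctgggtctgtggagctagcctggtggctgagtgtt
The RefSeq start of Scn4a lies 3898 bases inside the GENCODE gene, that of Scn4b 229 bases and that of Scn7a 4 bases.

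The promoter windows of both genes that fell were close in GC content but unlike each other in their count of CG dinucleotides. The Scn4b window held 26 CG dinucleotides at 66.3% GC, whereas the Scn4a window held 4 at 63.0% GC and the Scn7a window 3 at 54.0% GC. The median over 32851 RefSeq windows of the same length was 7 CG dinucleotides and 52.7% GC. Motifs were searched on both strands. The E-box CANNTG, which basic helix-loop-helix factors bind, was present in 72.3% of all windows. The Scn7a window held 2, starting 150 and 5 bases before the start, and was not found in the Scn4a and Scn4b windows. The first of these overlaps a match to CAGCTG, a form of the same motif held by 16.3% of windows. AGATAA, a form of the GATA motif, was held by 11.2% of windows and was found in the Scn7a window only, as was the GC box GGGCGG, held by 35.7%. Neither AAGTG (an NKX2-5 core, 46.4% of windows), AGGTGT (a T-box core, 13.7%), AGGTCA (a nuclear receptor core, 16.3%) nor TATAAA (13.6%) was found in any of the 3, and the same held for the MEF2 motif (0.557% of windows) and the CArG box (1.63%). These matches describe letters in a short window and not bound sites.

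The libraries each listed between 14151 and 14934 genes above 0, with a mitochondrial share of 17.0% to 24.1%. Mybpc3, the mutated gene, read 1510, 1795 and 2039 in the wild type, dropped to 133, 142 and 186 in the mutants given saline, and stood at 1024, 1374 and 1332 in the mutants given the editor. Each group held 1 library with the X-inactivation transcript Xist above 0, namely wild type replicate 1, saline mutant replicate 3 and treated replicate 1. In treated replicate 1 Y-linked transcripts were present too, at lower values than in the other libraries that had them.

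Scn4b, the beta-4 subunit, read 24, 21 and 25 in the wild type. Mutants given saline had values of 4, 3 and 2, and treated mutants of 12, 18 and 13. The 3 groups did not overlap in any pair, and their order was wild type, then treated mutant, then saline mutant. The means were 23.3 ± 2.08 (wild type), 3.0 ± 1.0 (saline mutant) and 14.3 ± 3.21 (treated mutant; SD, n = 3 hearts each). The saline mutant mean was 7.78-fold below that of wild type. Since the values are whole numbers, rounding alone would allow a fold between 6.52 and 9.53.

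Scn4a, the skeletal muscle alpha subunit, read 17, 19 and 24 in the wild type. Mutants given saline had values of 7, 6 and 3, and treated mutants of 9, 18 and 15. Every saline mutant heart lay below every heart of both other groups, while the ranges of the treated and wild-type hearts overlapped through treated replicate 2. The means were 20.0 ± 3.61, 5.33 ± 2.08 and 14.0 ± 4.58 (SD, n = 3 each). The saline mutant mean was 3.75-fold below that of wild type, within 3.34 and 4.24 for rounding alone.

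Scn7a, the sodium-sensing subunit, read 39, 43 and 37 in the wild type. Mutants given saline had values of 37, 36 and 58, and treated mutants of 31, 41 and 42. All 3 groups overlapped, and the highest value of the series was that of saline mutant replicate 3. The means were 39.7 ± 3.06, 43.7 ± 12.4 and 38.0 ± 6.08 (SD, n = 3 each).

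**Figure D1:**
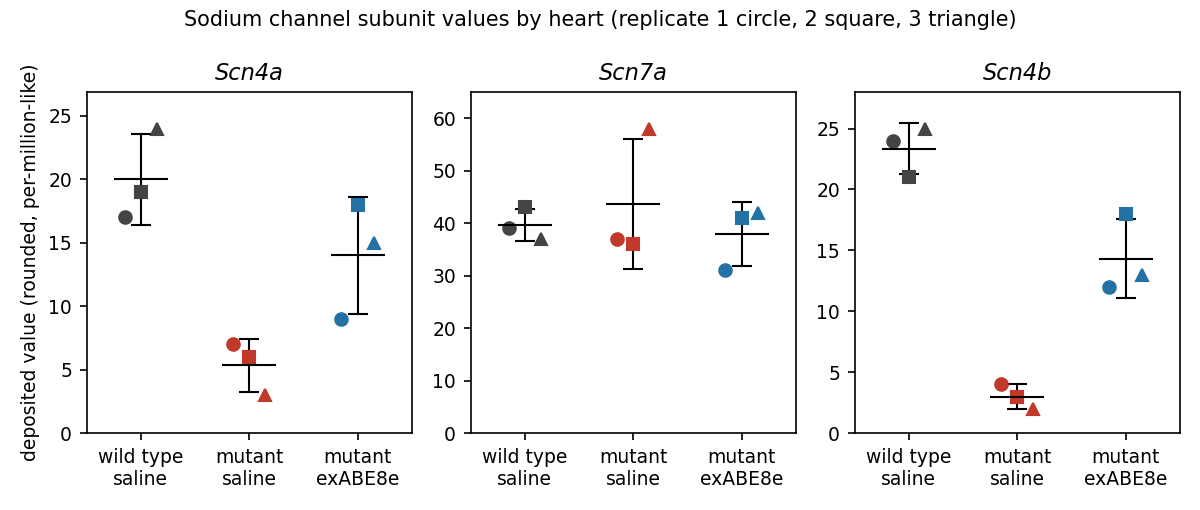
Deposited value (vertical axis, from 0) of each subunit in the 9 hearts, by group (horizontal axis); points are single hearts with the replicate number given by shape, and bars are the mean and SD of 3 hearts. Scn4b and Scn4a are lowest in all 3 saline mutant hearts (2 to 4 and 3 to 7), and Scn7a overlaps across the groups, with saline mutant replicate 3 highest at 58.

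Setting the mutants given saline against the wild type asks how hearts with the homozygous stop codon differ without the editor. Differences were fitted with limma on log2(value + 1) over 13632 genes, and calls were made below 0.05 after Benjamini-Hochberg adjustment. On this scale folds of genes with low values are understated. Scn4b fell by 2.63 (SE 0.201, 95% interval -3.09 to -2.17, limma adjusted p = 0.000216) and Scn4a fell by 1.78 (SE 0.261, 95% interval -2.37 to -1.18, limma adjusted p = 0.00438). Of all genes tested, 3.14% were called lower and 4.56% higher, and in 8.78% the saline mutant hearts lay below the wild-type hearts without overlap. Both calls held in each of 17 alternative fits, with adjusted p from 2.46e-05 to 0.00484 for Scn4b and from 0.00109 to 0.0379 for Scn4a. The saline mutant hearts also took part in the contrast through which Scn4b was chosen, so its value here is not independent of that choice.

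Scn7a differed by 0.10 between saline mutant and wild-type hearts (SE 0.182, limma adjusted p = 0.811), less than the spread between hearts. The 95% interval of -0.31 to 0.52 covers folds from 0.807 to 1.43 on the log2(value + 1) scale. Without saline mutant replicate 3 the difference was -0.11. In that library the summed markers of fibroblasts (5463 against 3803 and 4034 in the other saline mutants) and macrophages (692 against 358 and 533) were also at their highest of the series. So were those of the conduction system (117 against 109 and 94) and of neurons (36 against 22 and 22). The neuronal peak rested on Uchl1, without which that library summed to 12, below the 13 of wild type replicate 2. The part of these cell types in the Scn7a value was not tested.

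In treated against saline mutant hearts, the contrast that led to the choice of these genes, values are a description. Scn4b was 4.78-fold higher in treated hearts, with folds between 3.95 and 5.93 possible from rounding alone, and its log2 difference was 1.95. Scn4a had a log2 difference of 1.25, on a 2.62-fold higher mean. That of Scn7a was -0.17, and it was 0.18 without the 3 libraries with Xist. Scn4b and Scn4a both lay above the saline mutants without overlap, which was the case for 5.48% of the 13636 genes tested. In this contrast limma called 2 genes, 0.0147% of those tested.

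The last comparison set treated mutants against wild type and shares its groups with both others. Scn4b differed by -0.68 (SE 0.165, 95% interval -1.07 to -0.30, limma adjusted p = 0.143), and its treated hearts (12 to 18) lay below the wild-type hearts (21 to 25) without overlap. Of the 13554 genes tested, 5.43% lay below wild type without overlap and 0.125% were called lower. Scn4a differed by -0.52 (SE 0.247, 95% interval -1.10 to 0.05, limma adjusted p = 0.445). Without treated replicate 1 the Scn4a difference was -0.25, and without treated replicate 2 it was -0.72. Scn7a differed by -0.07 (SE 0.141, 95% interval -0.40 to 0.26, limma adjusted p = 0.900). None of the 3 was called here by limma in the main fit or in any of 17 alternatives, in which the adjusted p of Scn4b ranged from 0.0763 to 0.670. At an unadjusted p under 0.05 there was 1 of the 3, Scn4b, and 1697 of all genes tested.

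**Figure D2:**
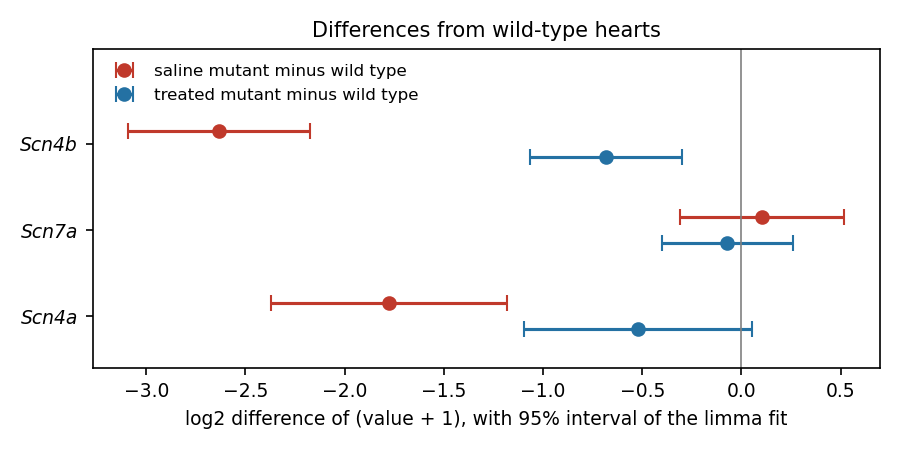
Log2 difference of (value + 1) from wild-type hearts (horizontal axis) for each subunit, in saline mutants and in treated mutants; points are limma estimates and bars their 95% intervals. In saline mutants the intervals of Scn4b (-3.09 to -2.17) and Scn4a (-2.37 to -1.18) lie below 0, and that of Scn7a spans 0.

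Single treated hearts were placed on a scale from the saline mutant mean (0) to the wild-type mean (1). For Scn4b they lay at 0.443, 0.738 and 0.492 (replicates 1 to 3, mean 0.557 ± 0.158 SD). For Scn4a they lay at 0.25, 0.864 and 0.659 (mean 0.591 ± 0.312 SD). Mybpc3 itself lay at 0.535, 0.75 and 0.724 (mean 0.669 ± 0.117 SD). Treated replicate 1 was the lowest of the 3 hearts for all 3 genes, and treated replicate 2 the highest. Scn7a has no such position, since its saline groups overlapped.

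Scn4a and Scn4b also varied together from heart to heart. Pearson's r of their log2 values was 0.958 over the 9 libraries, which share 3 group levels, and 0.862 for the deviations from the group means. Within the saline mutants both were highest in replicate 1 and lowest in replicate 3, and within the treated hearts both were lowest in replicate 1 and highest in replicate 2. The wild-type hearts differed in order, Scn4a being lowest in replicate 1 and Scn4b in replicate 2, and the saline mutant order of Scn4b rests on values of 4, 3 and 2. With Mybpc3, Scn4b had r = 0.961 over the 9 libraries but -0.19 for the deviations within groups, and Scn4a 0.889 and 0.08. Scn7a had r = -0.34 with Scn4a and -0.32 with Scn4b over the 9 libraries. With Mybpc3 it had r = -0.18 over the 9 libraries but 0.76 for the deviations within groups.

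Among the 4980 genes whose mean value reached 30, the 5 with the highest r to each subunit over the 9 libraries were read out as a description, so no test is given for them. For Scn4b these were Ces1d, a carboxylesterase (r = 0.988), Lgr6, a receptor for R-spondins (0.986), Dglucy, D-glutamate cyclase (0.984), Rxrg, a retinoid X receptor (0.983), and Stom, the membrane protein stomatin (0.982). Ces1d went from 99, 97 and 114 in the wild type to 24, 15 and 14 with saline in mutants, and read 48, 61 and 58 with treatment, the nearest to Scn4b in the size of its difference (-2.52 in saline mutants against wild type). Rxrg was 62, 59 and 59, then 33, 32 and 23, then 46, 56 and 45. Both genes were in the same order of groups as Scn4b, without overlap.

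For Scn4a the nearest genes were Ogdhl (r = 0.991), Dele1 (0.990), Pcca (0.989), Mccc1 (0.985) and Aldh6a1 (0.982). Ogdhl encodes an oxoglutarate dehydrogenase-like enzyme, Pcca and Mccc1 encode subunits of mitochondrial carboxylases of amino acid breakdown, Aldh6a1 a dehydrogenase of valine breakdown, and Dele1 a mitochondrial stress relay. Ogdhl went from 127, 178 and 212 in the wild type to 63, 61 and 29 with saline in mutants, and read 86, 140 and 132 with treatment, with wild type replicate 1 and treated replicate 1 the lowest of their groups, as for Scn4a. Its log2 difference in saline mutants against wild type was -1.79, against -0.41 for Pcca and -0.50 for Dele1.

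For Scn7a the nearest were Zeb2 and Zfp266, genes of zinc finger proteins (r = 0.955 and 0.948), Atf2, a leucine zipper transcription factor (0.947), Adamts5, an aggrecan-cleaving protease (0.942), and Ptbp3, an RNA-binding protein (0.939). All 5 had their highest value in saline mutant replicate 3, as Scn7a did. Zeb2 read 30, 41 and 32 in the wild type, then 32, 30 and 55 with saline in mutants, and 28, 38 and 36 with treatment.

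**Figure D3:**
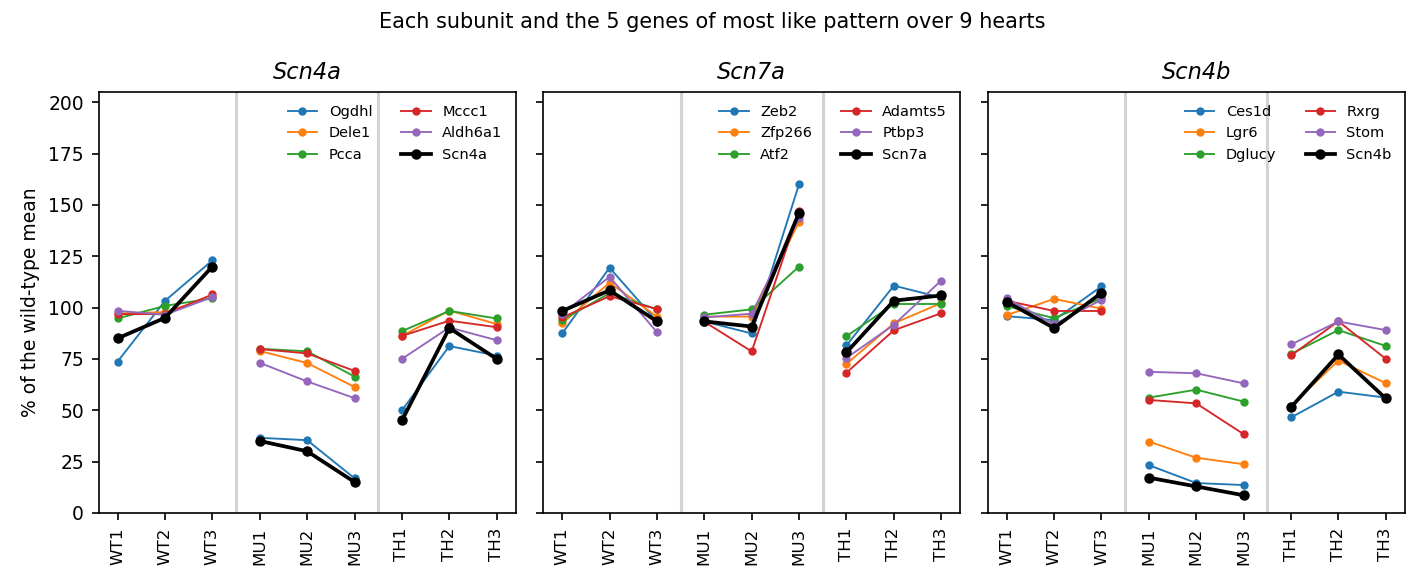
Value as a percentage of the gene's wild-type mean (vertical axis) in the 9 hearts (horizontal axis; WT wild type, MU saline mutant, TH treated mutant, with replicate numbers) for each subunit (black) and the 5 genes most like it (colours); lines join hearts of a group only to guide the eye. Scn4b and Ces1d fall furthest in their panel, Ogdhl follows Scn4a, and the Scn7a panel shows saline mutant replicate 3 above the rest.

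Genes around the channel were read from 4 lists of 70 entries, 20 channel partners, 17 genes of the sodium pump and exchangers, 18 transcription factors of conduction tissue and 15 clock genes. Of the 70, 60 were tested in saline mutants against wild type. Of these, 7 were called, 3 higher and 4 lower (11.7%, against 7.70% of all genes tested), and 5 of the 7 were transcription factors or clock genes. Neither treated comparison called any of them with limma: 0 of 62 against saline mutants (0.0147% of all genes) and 0 of 60 against wild type (0.989%). At an unadjusted p under 0.05 there were 6 of the 62, beside 1130 of all 13636 genes, and 12 of the 60, beside 1697 of all 13554. Medians of the log2 difference in saline mutants were 0.03 for channel partners, 0.02 for the sodium pump and exchangers, -0.04 for transcription factors of conduction tissue and -0.08 for clock genes, against 0.07 over all genes.

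Among 17 tested channel partners (proteins that bind, anchor or modify the channel), 1 was called in saline mutants. Fgf13, an intracellular fibroblast growth factor homologue that binds the tail of alpha subunits, read 67, 62 and 65 in the wild type, 45, 39 and 31 with saline in mutants, and 40, 51 and 47 with treatment. It fell by 0.75 (SE 0.141, limma adjusted p = 0.0132), and both mutant groups lay below wild type without overlap.

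Of 15 tested transcription factors known from conduction tissue and the heart chambers, 2 were called, in opposite directions. Tbx5, a T-box activator, fell by 0.52 (SE 0.123, limma adjusted p = 0.0366), from 20, 22 and 21 to 15, 13 and 15, and was 13, 21 and 19 in treated hearts. Tbx20, another T-box factor, rose by 0.70 (SE 0.139, limma adjusted p = 0.0178), from 105, 125 and 94 to 165, 159 and 203, and was 100, 124 and 147 in treated hearts. Of 15 clock genes, 3 were called. Clock, a core activator, rose by 0.51 (limma adjusted p = 0.0381), Nfil3, a repressor of D-box genes, rose by 0.90 (limma adjusted p = 0.0186), and Hlf, an activator of the same genes, fell by 0.78 (limma adjusted p = 0.0201). Nfil3 was 5, 7 and 7 in wild type and 11, 12 and 15 in saline mutants, but 38, 46 and 8 in treated hearts, so that treated replicates 1 and 2 stood apart from replicate 3. The hour of tissue collection was not in the labels.

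The 7 calls on these lists depended on single libraries. Leaving out saline mutant replicate 2 left 1 called gene. Leaving out saline mutant replicate 3 left 2, and so did leaving out replicate 1 or replicate 3 of the wild type.

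**Figure D4:**
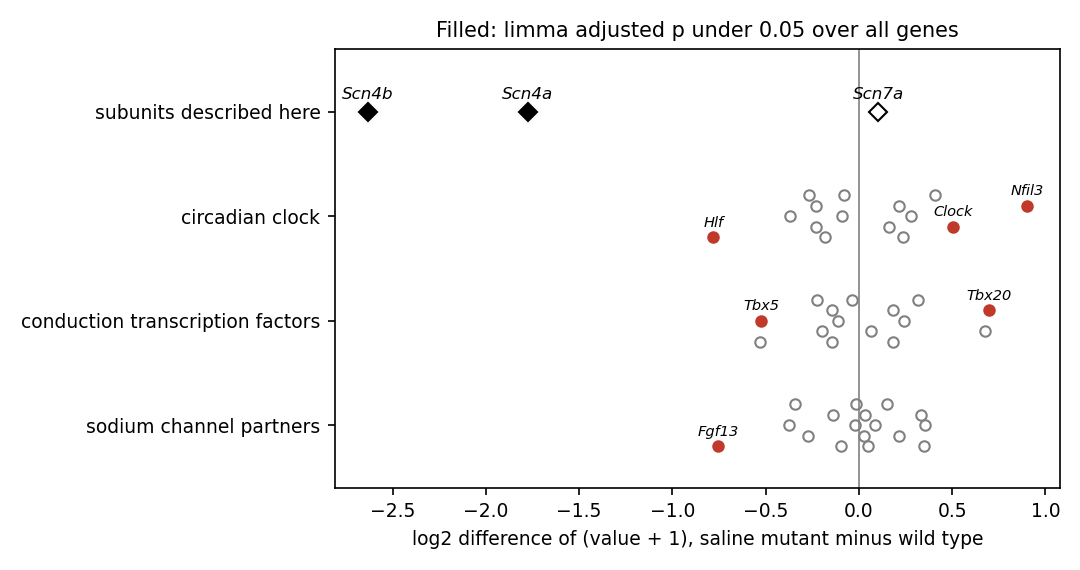
Log2 difference of (value + 1) between saline mutant and wild-type hearts (horizontal axis) for the 3 subunits (diamonds) and the genes of 3 lists, channel partners, conduction transcription factors and clock genes (circles, 1 row per list, spread vertically for legibility); filled symbols have a limma adjusted p under 0.05. Scn4b (-2.63) and Scn4a (-1.78) lie further below 0 than every gene of the plotted lists, of which Hlf (-0.78) is the lowest.

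Marker genes of the cell types that a piece of heart can hold were read in every library. Values were deposited for 9 of 19 skeletal muscle, 9 of 11 conduction system, 5 of 8 atrial, 12 of 14 Schwann cell and 6 of 14 neuronal markers. Markers without a deposited value are counted below as not reaching a mean of 1, although no level is known for them. In bulk tissue fewer cells of a type and less RNA per cell cannot be told apart. Ventricular cardiomyocyte markers (10 of 10 with a mean of at least 1, Myh6 the most abundant) summed to 58804 to 64383 (wild type), 56107 to 66839 (saline mutant) and 61442 to 62664 (treated), and the ranges overlapped. None of the 10 was called in saline mutants against wild type, and of 5 with an unadjusted p under 0.05, 3 were lower and 2 higher. The part of cardiomyocyte content in the subunit values was not tested. Conduction system markers (9 of 11, Irx3 the most abundant) overlapped too, at 102 to 115, 94 to 117 and 90 to 111. The summed markers of endothelial cells (1874 to 2285, 1596 to 2091 and 1543 to 1870; 10 of 10, Fabp4 the most abundant) overlapped between the saline groups, as did those of mural cells (1599 to 1974, 1349 to 1622 and 1332 to 1643; 9 of 10, Rgs5) and macrophages (338 to 448, 358 to 692 and 310 to 452; 10 of 10, C1qa).

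Skeletal muscle markers bear on Scn4a. Of 19, 9 had deposited values and 4 of these a mean of at least 1. Myh4, the fast myosin heavy chain, was 0 in all 6 saline hearts and 1 in each treated heart. The summed level was 48 to 56 in wild type, 172 to 185 in saline mutants and 108 to 125 in treated hearts, opposite to Scn4a. Mybpc2, the fast skeletal paralogue of Mybpc3, made up most of it, and without Mybpc2 the sums were 24 to 28, 16 to 18 and 24 to 25. Tnnt1 (15, 19 and 15, then 12, 10 and 10) and Cacna1s (8, 8 and 6, then 4, 3 and 2) made up much of that remainder. The other markers in it read 0 to 2 in every library and differed in both directions. Among them, Mylpf (1, 0 and 1, then 1, 2 and 2) had a higher mean in saline mutants and Tnni2 (1, 1 and 1, then 0, 1 and 0) a lower one. The part of these genes' source in the fall of Scn4a was not tested.

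Markers of other types also differed between the groups, in both directions. Atrial markers (5 of 8 with a mean of at least 1, Kcnj5 the most abundant) summed to 152 to 159 in wild type, 78 to 99 in saline mutants and 102 to 120 in treated hearts. Within that list Kcnj3, a subunit of the acetylcholine-gated potassium channel, went from 54, 48 and 51 to 10, 11 and 9, and Myl4, the atrial myosin light chain, from 1, 1 and 1 to 3, 3 and 5. Schwann cell markers (8 of 14 with a mean of at least 1, Art3 the most abundant) summed to 318 to 422, 255 to 316 and 330 to 346, and without Art3 to 39 to 50, 35 to 39 and 30 to 44. Fibroblast markers (11 of 11, Gsn the most abundant) overlapped at 3200 to 4224, 3803 to 5463 and 3758 to 4117, but without Gsn they were higher in saline mutants, at 1459 to 1944, 2276 to 3850 and 1733 to 2365. Neuronal markers (4 of 14, Uchl1 the most abundant) summed to 15 to 21, 22 to 36 and 20 to 25, and without Uchl1 to 10 to 13, 6 to 12 and 8 to 9. The part of these cell types in the subunit values was not tested.

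The other subunit genes looked up on the list of the family include 4 whose values were between 0 and 3 in every library, too low at this rounding to compare groups. In the authors' deposited table the log2 fold changes in saline mutants against wild type were -3.03 for Scn4b, -1.97 for Scn4a and 0.05 for Scn7a.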

How the data were processed

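Per the submitters' processing notes, HISAT2, HTSeq and DESeq2 were used with build mm10; roles, settings and the annotation are not given in the sources used here. The deposited values per library are treated as a score: whole numbers with nearly equal library totals, rounded by the authors. Depth is therefore unknown, and precision rests on 3 hearts per group. The deposited log2 fold changes are the authors' own.

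The 3 tables agreed in every shared value. Each pair of groups was fitted with limma 3.58.1 (R 4.3.3) on log2(value + 1), for genes with a mean of at least 1 over 6 libraries, with a variance trend. Residual variances were held at or above the rounding variance (1/12 on the value scale), and prior degrees of freedom came from genes with a mean of at least 30. In a simulation, 200 genes with a mean of at least 10 were made to differ by a log2 value of 1. The fit of saline mutant against wild type recovered 79.3% of them. Of its calls, 3.72% were false. At a change of 2 these shares were 99.8% and 4.39%. Recovery of genes with lower means was not simulated, and whether these shares hold for the deposited libraries was not tested. In those, leaving out 1 library gave between 506 and 1029 called genes in this comparison. The p-values of the fit set group differences against a variance drawn partly from these hearts and partly from a trend over all genes tested. The spread between hearts may be partly technical.

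The members, lists, variance step and named-gene rule (the members, called list genes, and the 5 genes of highest r) were chosen with earlier results of these data known. The rule would also name further sodium channel genes of the family; some of these, and a called gene of another list, are not reported here. Whether same-numbered hearts were pairs is not in the labels, and they were fitted as unpaired except with the replicate block. Their deviations from the group means correlated at between -0.42 and 0.62 in 4981 genes, which cannot settle pairing with 3 hearts per group. The highest was that of replicate 1 in treated mutants against wild type. Alternatives covered pseudocount, filter, scaling, variance, samples fitted, replicate block, Y-linked level and single libraries.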

Additional observations from a re-analysis of the deposited data

How the results depend on the processing

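Scn4b and Scn4a kept their direction and their call in saline mutants against wild type in all 17 alternatives (log2 differences from -2.97 to -2.42 and from -1.97 to -1.47), among them the fit with the replicate block (adjusted p = 5.89e-05 and 0.00241) and the one without the 3 libraries with Xist, chosen after seeing the data (0.00345 and 0.00915). With 1 library left out these differences ranged from -2.81 to -2.44 and from -1.97 to -1.47. Scn7a, never called, reversed sign against wild type without the 3 libraries with Xist, in saline mutants (-0.12) and in treated hearts (0.0556), and with 1 library left out it ranged from -0.11 to 0.22 and from -0.15 to 0.0662; in treated against saline mutants it was 0.18 without the libraries with Xist and -0.29 to 0.04 with 1 left out. The replicate block changed no call of the 3 subunits in either comparison with wild type. Where a fit left a group with fewer hearts, fewer samples bore on every count, and otherwise the cause was not tested.

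Counts of called genes moved more. In saline mutants against wild type 1050 genes were called, 556 without the 3 libraries with Xist and 506 to 1029 with 1 left out; 59.2% of the 1050 were higher, against 53.5% and 47.6% with median-of-ratios and upper-quartile scaling. On the 4 lists 7 were called, 2 with the trend alone and no rounding floor, 4 with all 9 libraries in one fit, 4 without the libraries with Xist and 1 to 6 with 1 left out. In treated against saline mutants 2 genes were called, 6 at a mean of at least 10, 10 with median-of-ratios and 10 with upper-quartile scaling, 32 with the trend alone (which drops both the rounding floor and the choice of genes for the prior), 14 with the prior from all genes, 13 with all 9 libraries, 30 with the replicate block and 2 to 8 with 1 left out (0 to 1 on the lists). In treated mutants against wild type 134 were called, 86 with no filter, 77 with the trend alone, 243 with the prior from all genes, 239 with all 9 libraries, 35 with the replicate block, 29 with the Y-linked covariate, 9 without the libraries with Xist and 1 to 133 with 1 left out. On the lists this count was 0, 1 with all 9 libraries and 0 to 2 with 1 left out. Upper-quartile scaling put 71.6% of the calls higher, against 87.3%. The mean positions of the treated hearts ranged from 0.455 to 0.761 for Scn4a and from 0.467 to 0.615 for Scn4b with 1 heart left out. Values of 2 to 4, as for Scn4b in saline mutants, are limited by rounding.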
